A study of Bos taurus with 20 samples.

Results

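The miR-15/16 family and miR-424 were followed in the small RNA of bull spermatozoa. The members were taken by name from the table of mature bovine miRNAs, and all 8 of them (bta-miR-15a, bta-miR-15b, bta-miR-16a, bta-miR-16b, bta-miR-195, bta-miR-497, bta-miR-424-5p and bta-miR-424-3p) were among its 1029 entries. Spermatozoa came from 20 Holstein-Friesian bulls used in artificial insemination, 10 of high fertility (HF) and 10 of low fertility (LF), ranked by a fertility score adjusted for effects other than the bull. The semen was frozen-thawed. For each bull, straws from different ejaculates were combined and treated with a lysis buffer against somatic cells, and their RNA gave 1 library, so a value averages over ejaculates. No animal was treated, and no genotype, age or batch is given in the labels. Bulls are named here by group and by their number in the labels, as in HF17. The study asked whether sperm miRNAs differ between bulls of divergent fertility.

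The members other than miR-424-3p are grouped into a family because they are known to share a seed, the stretch near the 5′ end by which a miRNA finds its target mRNAs. The family is best known for holding back the cell cycle, through cyclins and cyclin-dependent kinases, and for lowering the survival factor BCL2, and it acts as a brake on proliferation in lymphocytes and in the heart after birth. It is transcribed from paired genes, and miR-424 from a separate X-linked gene that gives a mature miRNA from each arm of its hairpin. miR-424-5p has the family seed, and miR-424-3p is the opposite strand with another seed. Spermatozoa no longer transcribe, so their miRNAs are held to remain from spermatogenesis or to be taken up in the epididymis.

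In the RefSeq annotation of ARS-UCD2.0, which is a later build than that of the deposited values and was used only for names and neighbours, all 8 members had a gene. The genes of miR-15a and miR-16a are neighbours on chromosome 12 within a transcribed pseudogene (LOC100847818). Those of miR-15b and miR-16b are neighbours on chromosome 1 within SMC4, a gene for a condensin subunit. The genes of miR-195 and miR-497 lie side by side on chromosome 19 within a long non-coding RNA (LOC107131510). The miR-424 gene is on the X chromosome, in a run with the genes of miR-503, miR-542, miR-450a and miR-450b and inside no other gene.

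Values are normalized counts on a scale close to CPM. They were taken here to be scaled to library size and adjusted by TMM, the normalization that the study names. A mature miRNA gives 1 read whatever its length, and the reads behind each value were recovered from the step between low values. Recovered libraries held 103204 to 3097581 reads in HF bulls (median 1092881) and 310186 to 1640178 in LF bulls (median 1085742). A floor of 3 reads was worth between 1.19 and 27.6 normalized counts, and the highest floor belonged to HF17, the shallowest library, at 30.0 times fewer reads than the deepest. Libraries under 500000 reads were HF17, LF11 and LF13, and each of them also held the lowest or highest value of several members. Counting intervals and floors cover counting error only.

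The label of the tissue was checked against marker miRNAs of the cells that semen can hold. In the study, RT-PCR for CDH1 (epithelium), PTPRC (leucocytes) and KIT (germ cells) gave no product from the sperm RNA tested. The male germ line markers (miR-34b, miR-34c and miR-449a to c, 5 of 5 past the filter on low values) summed to 32093 to 77203 normalized counts in HF bulls (median 47138) and 25829 to 54584 in LF bulls (median 42240). Their fitted values were all higher in HF, 0 of them at an unadjusted p under 0.05 in limma. The epithelial markers (miR-141, the miR-200s, miR-429 and miR-205, 6 of 6 past the filter) summed to 6544 to 13138 in HF bulls (median 10263) and 9680 to 15554 in LF bulls (median 11875). Their fitted values were all lower in HF. In limma, 2 of them (miR-200a and miR-429) had an unadjusted p under 0.05, with an adjusted p of 0.94 for each. Over all 435 miRNAs past the filter, 15 (3.45%) reached that unadjusted p, and 0 had an adjusted p under 0.05. Sums were 21.7 to 100.4 in HF and 20.0 to 82.7 in LF for 3 red blood cell markers (1 of them at an unadjusted p under 0.05), 53.7 to 207.9 and 39.1 to 284.1 for 4 leucocyte markers, and 129 to 1718 and 102 to 2068 for 4 smooth muscle and endothelial markers. None of these lists was at 0 everywhere, none held a miRNA past both thresholds given below, and their part in the members' values was not tested. In a bulk library, fewer cells of a type and less RNA per cell cannot be told apart. Nor can either be told from miRNAs that spermatozoa took up in the epididymis.

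By read counts, the family in bull spermatozoa was almost entirely miR-16. The 2 forms of miR-16 made up 91.0% ± 1.37 (SD, n = 20 bulls) of the members' counts, between 88.2% in LF18 and 93.2% in LF20, and miR-16b on its own made up 63.5% ± 2.38. These shares depend on how reads were assigned to the 2 nearly identical forms, which is uncertain. All members together took 1.59% ± 0.429 of all miRNA counts, from 0.927% in LF11 to 2.79% in LF13. This share was 1.53% ± 0.310 in HF bulls and 1.65% ± 0.534 in LF bulls (n = 10 each). It depends on miR-100, the most abundant miRNA in all 20 libraries, and was 2.63% ± 0.563 over the 20 bulls with miR-100 left out of the total.

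In the order of the levels, miR-16b stood first at a mean of 9991 normalized counts, rank 16 of the 1029 miRNAs. It was followed by miR-16a at 4363 (rank 33), miR-15b at 770.0 (rank 70), miR-195 at 538 (rank 82), miR-15a at 85.5 (rank 166) and miR-497 at 15.8 (rank 276). The arms of miR-424 closed the order at 1.63 for miR-424-3p (rank 446) and 0.90 for miR-424-5p (rank 494). Within each bull, miR-16b exceeded miR-16a, miR-16a exceeded miR-15b, miR-195 exceeded miR-15a, miR-15a exceeded miR-497, and miR-497 exceeded miR-424-3p in 20 of 20. The order of miR-15b and miR-195 did not hold in single bulls, since miR-15b was higher in 14 of 20 (7 HF and 7 LF), at a mean log2 ratio of 0.50 ± 0.71 (SD, n = 20 bulls). Nor did that of the miR-424 arms, with the 3p arm higher in 11 bulls and the arms equal in 6. Neither of these differences in level was tested. An order of read counts is not an order of molecules, since adapter ligation treats miRNAs unequally.

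**Figure D1:**
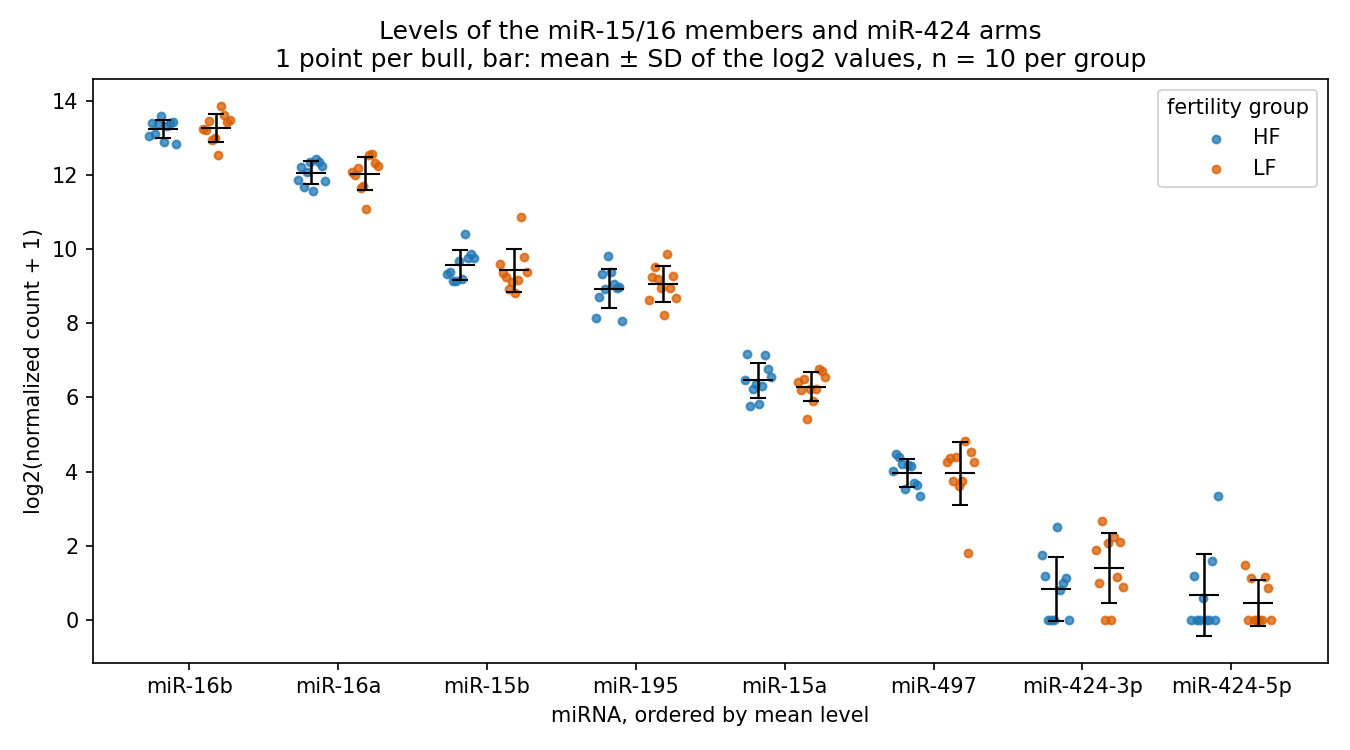
Level of each member in each bull as log2(normalized count + 1), with members ordered by their mean level and HF (blue) beside LF (orange). Each point is a bull, and bars give the mean ± SD of the log2 values (n = 10 per group). HF and LF overlap for every member, single bulls stand apart for miR-15b (HF14 and LF18) and for miR-497 (LF18), and the miR-424 arms lie at the bottom with many bulls at 0.

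miR-16b ran from 7289 in HF17 through a median of 10413 to 12247 in HF10 among HF bulls. In LF bulls it ran from 5903 in LF11 through 10294 to 14949 in LF13, so that all 10 HF values lay inside the range of LF. Behind these stood 793 to 24245 reads per library. The means were 9797 ± 1647 and 10185 ± 2567 (SD, n = 10 each), and the log2 fold change of HF over LF was -0.032 (SE 0.15, 95% interval -0.34 to 0.27, limma, adjusted p = 0.98).

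miR-16a lay between 3053 (HF12) and 5556 (HF14) in HF bulls, with a median of 4535. In LF bulls it lay between 2162 (LF11) and 6005 (LF18), with a median of 4482, and again contained every HF value. HF bulls averaged 4357 ± 884 and LF bulls 4368 ± 1225, with a log2 fold change of 0.027 (SE 0.17, 95% interval -0.33 to 0.38, limma, adjusted p = 0.98). The mature forms of miR-16a and miR-16b are nearly identical, so how reads were divided between them is uncertain. Their ratio stayed within narrow bounds, which does not settle how the reads were divided. miR-16b was 2.32 ± 0.220 (SD, n = 20) times as abundant as miR-16a, from 1.84 in HF14 to 2.73 in LF11, at 2.27 ± 0.247 in HF and 2.36 ± 0.192 in LF.

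miR-15b, the partner of miR-16b, was carried by 95 to 1798 reads per library. HF bulls ran from 564 (HF6) through a median of 743 to 1367 (HF14), and LF bulls from 448 (LF11) through 634 to 1862 (LF18). A single bull stood far above the rest in each group, since the next highest were at 939 in HF and 884 in LF. Of the HF bulls, 7 of 10 exceeded the LF median. The means were 789 ± 247 in HF and 751 ± 411 in LF, and the log2 fold change was 0.14 (SE 0.22, 95% interval -0.30 to 0.59, limma, adjusted p = 0.96). Without LF18 the LF mean was 628 ± 137 (n = 9) and the log2 fold change 0.30 (limma, unadjusted p = 0.096), and without HF14 it was 0.049.

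miR-15a, the partner of miR-16a and a member often lost in human chronic lymphocytic leukaemia, was much the rarer of its pair. HF bulls ran from 53.7 (HF6) through 84.7 to 143.7 (HF3) and LF bulls from 42.1 (LF7) through 78.8 to 107 (LF18), and 6 of 10 HF bulls exceeded the LF median. The mean was 91.4 ± 31.0 in HF and 79.7 ± 19.9 in LF. This gave a log2 fold change of 0.17 (SE 0.21, 95% interval -0.26 to 0.60, limma, adjusted p = 0.96), which came to 0.075 without LF7 and 0.091 without HF3.

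miR-195 and miR-497 form the third pair of genes, known in striated muscle and the postnatal heart. miR-195 ran from 267 (HF17) through 501 to 897 (HF10) in HF and from 297 (LF11) through 540 to 941 (LF13) in LF, with 3 of 10 HF bulls above the LF median. HF bulls averaged 519 ± 186 and LF bulls 557 ± 186, with a log2 fold change of -0.12 (SE 0.22, 95% interval -0.57 to 0.33, limma, adjusted p = 0.96). As each bull was left out, the value ran from -0.22 (without HF10) to -0.021 (without HF17, where miR-195 rested on 29 reads). Of the 6 members tested, miR-497 was the scarcest, with 1 to 38 reads per library. It ran from 9.19 (HF17) through 15.9 to 21.4 (HF3) in HF and from 2.47 (LF18) through 18.1 to 27.6 (LF13) in LF. Its mean was 15.1 ± 4.14 in HF and 16.4 ± 6.98 in LF, and its log2 fold change 0.011 (SE 0.30, 95% interval -0.61 to 0.63, limma, adjusted p = 0.99). Means and fitted values of miR-497 and miR-16a leaned to opposite sides. The fitted value of miR-497 was -0.23 without LF18, its lowest bull, and that of miR-16a was -0.079 without LF11, its lowest bull.

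None of the 6 members tested was found to differ between HF and LF bulls beyond the spread between bulls. The thresholds were those of the study, an unadjusted p under 0.05 with a fold change over 1.5, and 0 of the 6 members that passed the filter met them. Of all 435 miRNAs tested, 9 met them, or 2.07%. An adjusted p under 0.05 was reached by 0 of the 435 in limma, where the lowest was 0.92. An unadjusted p under 0.05 was reached by 0 of the 6 members in limma, against 15 of the 435 miRNAs (3.45%). Tests of the recovered reads also gave 0 of 6 at that p, by edgeR's likelihood ratio and quasi-likelihood tests and by DESeq2. Over all 435 miRNAs these tests gave 16, 18 and 18. A count of 0 of 6 is near these shares and is not a result about the members. A log2 fold change above 0 was found for 4 of the 6 members and for 50.1% of all miRNAs, at a median of 0.019 for the members and 0.0051 for all. Groups overlapped for all 8 members, which for the miR-424 arms follows from libraries at 0 in both groups. Overlap was not counted over all miRNAs, so it describes the members only. The 95% intervals of miR-16a and miR-16b left out a 1.5-fold difference in either direction, here and in every limma fit with 1 bull left out. That of miR-195 left it out narrowly (lower end -0.57) and took in 1.5-fold lower in HF in 12 of the 20 fits that leave out a bull and with library totals in place of TMM, where it reached -0.67. Those of miR-15a and miR-15b took in 1.5-fold higher in HF, also narrowly (upper ends 0.60 and 0.59). They left it out in 4 and 6 of the 20 fits that leave out a bull, and in 5 and 4 of the 7 other limma alternatives. The interval of miR-497 took in 1.5-fold either way.

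**Figure D2:**
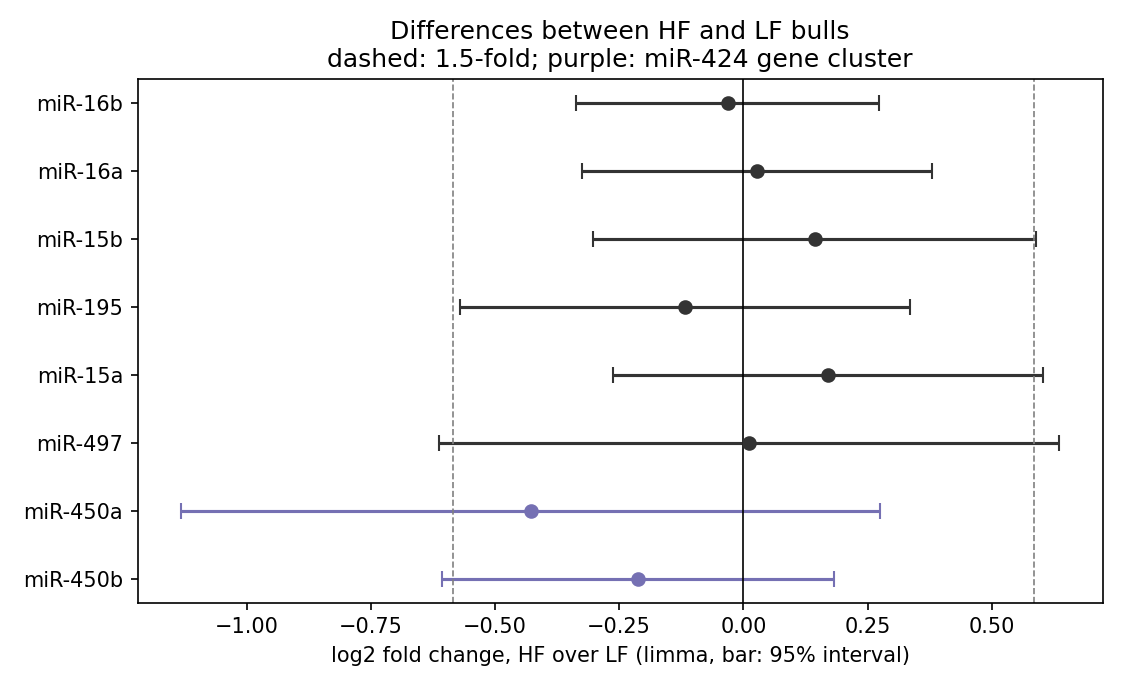
Log2 fold change of HF over LF bulls from limma, with 95% intervals (n = 10 per group), for the 6 members tested (black) and for miR-450a and miR-450b of the miR-424 gene cluster (purple). Dashed lines mark a 1.5-fold difference. Every interval crosses 0, and that of miR-16b, from -0.34 to 0.27, is the narrowest.

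Variation among bulls differed between members. The coefficient of variation over the 20 bulls was 21.1% for miR-16b, 23.8% for miR-16a, 30.5% for miR-15a, 33.8% for miR-195, 35.7% for miR-497 and 42.9% for miR-15b. Counting alone would give 0.977% for miR-16b, 1.44% for miR-16a, 3.50% for miR-15b, 4.27% for miR-195, 10.1% for miR-15a and 22.6% for miR-497 at their median read numbers. For miR-497 the reads ran from 1 to 38, so counting error in its shallow libraries was larger than this. On the log2 scale, the SD over bulls of the 158 miRNAs with at least 10 reads in every library had a median of 0.437 (quartiles 0.341 and 0.574). miR-16b ranked 30th from the least variable at 0.315, miR-16a 51st at 0.376, miR-15a 78th at 0.436, miR-15b 101st at 0.494 and miR-195 102nd at 0.498.

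Members from neighbouring genes were set against each other within each bull, as a log2 ratio of normalized counts with 1 added to each, which lowers the ratio where a member is rare. The log2 ratio of miR-16a over miR-15a ran from 5.04 (HF3) through 5.61 to 6.13 in HF bulls and from 5.18 through 5.69 to 6.32 (LF13) in LF bulls. The means of 5.60 ± 0.37 and 5.75 ± 0.33 differed by -0.14 (two-sided permutation test, p = 0.37, adjusted p = 0.62 over 3 ratios). For miR-16b over miR-15b the ratio ran from 2.90 (HF14) through 3.71 to 4.22 in HF and from 2.74 (LF18) through 3.87 to 4.70 (LF13) in LF, and means of 3.67 ± 0.41 and 3.84 ± 0.50 differed by -0.18 (permutation p = 0.41, adjusted p = 0.62). In both pairs the miR-16 member exceeded its miR-15 partner in every bull. miR-195 over miR-497 ran from 4.12 (HF2) through 4.92 to 6.27 in HF and from 4.38 through 4.84 to 7.15 (LF18) in LF, and means of 4.97 ± 0.61 and 5.10 ± 0.84 differed by -0.13 (permutation p = 0.71, adjusted p = 0.71). The top value rested on 397 reads of miR-195 and 2 of miR-497 in LF18, and without this bull the difference was 0.098.

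**Figure D3:**
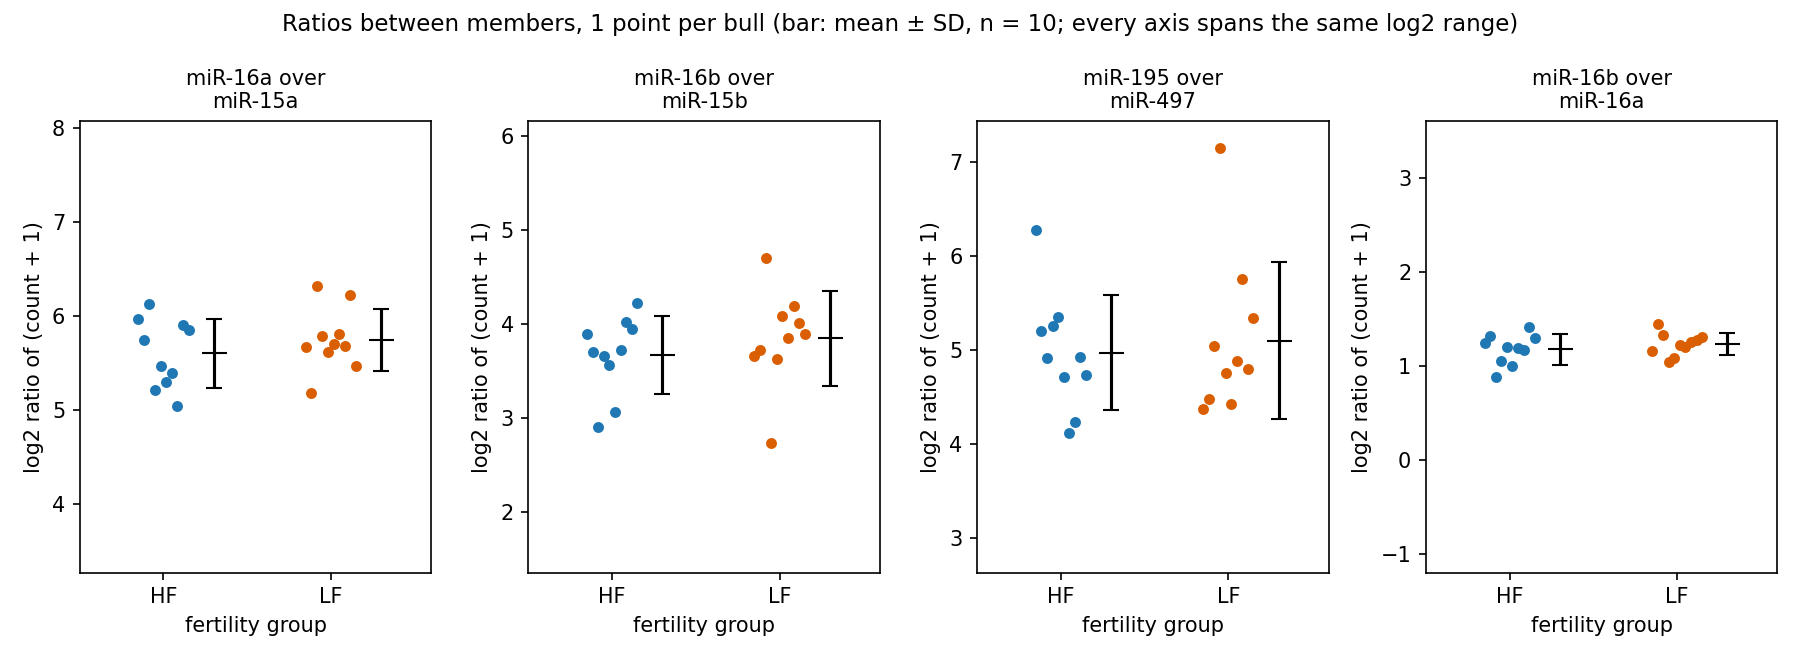
Log2 ratio of the normalized counts, with 1 added to each, of miR-16a over miR-15a, miR-16b over miR-15b, miR-195 over miR-497 and miR-16b over miR-16a, by fertility group. Each point is a bull, bars give the mean ± SD (n = 10), and every axis spans the same range. HF and LF overlap in each panel, the ratio of miR-16b over miR-16a is the tightest at 1.21 ± 0.14 over all bulls, and LF18 stands alone at 7.15 for miR-195 over miR-497.

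Over the 20 bulls, the log2 levels of the 6 more abundant members were compared in all 15 pairs. The members' values in a library share its scaling, so a part of each correlation can lie there, and its size was not tested. With library totals in place of TMM, r was 0.95 for miR-16a with miR-16b, 0.71 for miR-16a with miR-15b, 0.68 for miR-15a with miR-16a, 0.66 for miR-16b with miR-195 and -0.46 for miR-15b with miR-497. The values that follow are on the TMM scale. miR-16a and miR-16b moved most closely together, at Pearson's r = 0.93 and Spearman's rho = 0.88 (permutation p = 1e-05 for each, the smallest that 100000 resamples can give, adjusted p = 0.00015 over 15 pairs). The r was 0.85 within HF, 0.98 within LF and 0.89 without HF12 and LF11, the bulls farthest from the median of miR-16a. In each pair below, the bulls left out are likewise those farthest from the median of 1 of its members. How reads were divided between these nearly identical forms is uncertain, so a part of their r can lie there, and this was not tested. miR-16a also moved with miR-15b (r = 0.67, permutation p = 0.0016, adjusted p = 0.011, and rho = 0.71, permutation p = 0.00078, adjusted p = 0.0039). That r was 0.69 in HF, 0.67 in LF and 0.63 without HF14 and LF18.

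The tie between neighbouring genes on chromosome 12 was of the same order. miR-15a and miR-16a gave r = 0.64 (permutation p = 0.0023, adjusted p = 0.011) and rho = 0.62 (permutation p = 0.0039, adjusted p = 0.015), with r = 0.64 in HF, 0.70 in LF and 0.65 without HF3 and LF7. miR-15a and miR-15b, from different chromosomes, gave r = 0.54 (permutation p = 0.014, adjusted p = 0.034) and rho = 0.73 (permutation p = 0.00037, adjusted p = 0.0028), with r = 0.33 in HF, 0.73 in LF and 0.60 without HF3 and LF7. For the neighbours miR-15b and miR-16b the correlation missed the threshold after adjustment, at r = 0.44 (permutation p = 0.054, adjusted p = 0.10) and rho = 0.47 (permutation p = 0.035, adjusted p = 0.089). It was 0.29 in HF, 0.53 in LF and 0.42 without HF14 and LF18. miR-15a and miR-16b passed the threshold by r (0.51, permutation p = 0.021, adjusted p = 0.045, with 0.46 in HF, 0.63 in LF and 0.48 without HF3 and LF7) and missed it by rho (0.52, permutation p = 0.019, adjusted p = 0.057).

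For the third pair of neighbours, miR-195 and miR-497, the correlation was r = 0.23 (permutation p = 0.33, adjusted p = 0.44) and rho = 0.28 (permutation p = 0.22, adjusted p = 0.34). The r was 0.15 in HF, 0.31 in LF and 0.015 without HF17 and LF13, the bulls farthest from the median of miR-195. LF18, with 2 reads of miR-497, stayed in. Counting error in miR-497, at 1 to 38 reads per library, can lower any correlation with it, and its part was not tested. miR-195 moved with miR-16b by r (0.57, permutation p = 0.0091, adjusted p = 0.033) but not by rho (0.39, permutation p = 0.088, adjusted p = 0.19), with r = 0.47 in HF, 0.67 in LF and 0.32 without LF13 and LF11. Over all bulls its size thus rested in part on those LF bulls, though a positive r was also seen within HF. miR-195 with miR-16a gave r = 0.40 (permutation p = 0.083, adjusted p = 0.14) and rho = 0.23 (permutation p = 0.33, adjusted p = 0.41), with 0.18 in HF, 0.60 in LF and 0.35 without HF12 and LF11. miR-15b and miR-497 were inversely related by r (-0.61, permutation p = 0.011, adjusted p = 0.033) but not by rho (-0.32, permutation p = 0.17, adjusted p = 0.32), with r = -0.46 in HF, -0.69 in LF and -0.30 without HF14 and LF18. LF18 held the highest miR-15b and the lowest miR-497 of all bulls. Of the 15 pairs, 7 passed an adjusted p of 0.05 by r and 4 by rho, and r was above 0 in 9.

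**Figure D4:**
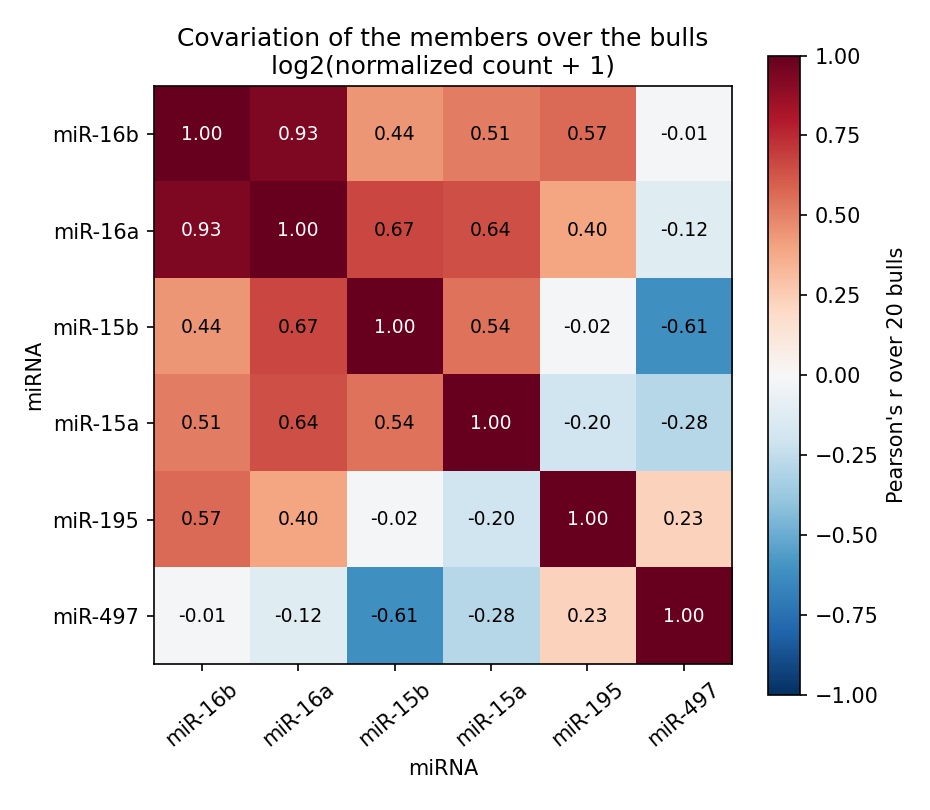
Pearson's r between the log2 levels of the 6 more abundant members over 20 bulls, with red for positive and blue for negative values. miR-16a and miR-16b give 0.93, miR-15a, miR-15b, miR-16a and miR-16b form a block of values from 0.44 to 0.93, miR-195 gives 0.57 with miR-16b, and miR-497 is near or below 0 with the block, down to -0.61 with miR-15b.

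Across the 158 miRNAs with at least 10 reads in every library, the nearest patterns to each member were also sought by Spearman's rho over the 20 bulls, as a description. miR-16a was most like miR-16b (0.88), miR-29a (0.77), which targets DNA methyltransferases and collagens, and miR-15b (0.71). miR-16b was most like miR-16a (0.88), miR-29a (0.71) and miR-194 (0.65). For miR-15a the nearest were miR-15b (0.73), miR-93 (0.66) and miR-30e-5p (0.65), and for miR-15b they were miR-132 (0.77), miR-15a (0.73) and miR-16a (0.71). Members were thus among the 3 nearest of each of these 4, while the median rho with all other miRNAs lay between 0.07 and 0.13. For miR-16b the only such member was miR-16a, and how reads were divided between them is uncertain. miR-195 was nearest to miR-2285j (0.55), miR-148a (0.54) and miR-105a (0.49), none of them in the family, and among its 157 comparisons miR-16b ranked 11th, miR-16a 32nd, miR-15b 98th and miR-15a 139th.

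miR-424 was at the edge of detection. Its 3p arm had 45 reads in all, in 14 of 20 libraries, and its 5p arm, which has the family seed, had 11 reads in 8 libraries, out of 23350594 recovered miRNA reads. The 3p arm ran from 0 through a median of 0.88 to 4.71 normalized counts (HF12, 9 reads) in HF bulls and from 0 through 1.97 to 5.37 (LF5, 9 reads) in LF bulls. The 5p arm had a median of 0 in both groups and reached 9.19 in HF17, where this was a single read, and 1.80 in LF1. More than 3 reads were seen for the 3p arm in 5 libraries (2 HF and 3 LF) and for the 5p arm in 0. Both group means of both arms were below the mean floor of 3 reads, which was worth 5.31 normalized counts in HF and 3.64 in LF, so no fold change is given and a difference was not detectable at this depth.

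Read together over libraries, the 3p arm made up 80.4% of the 56 reads of miR-424 (95% Clopper-Pearson interval 67.6 to 89.8, counting error only). It was 20 of 25 reads in HF (80.0%, interval 59.3 to 93.2) and 25 of 31 reads in LF (80.6%, interval 62.5 to 92.5), and the difference was not tested. HF2 and HF12 gave 6 and 9 of the 20 reads in HF. Library by library, the 3p arm was ahead in 4 HF bulls and the 5p arm in 3, against 7 and 0 in LF bulls. In HF10, HF14, HF17, LF4 and LF20 the lead was 1 read against 0, under the floor of 3 reads. No difference between the groups is read from these counts. Both arms were at 0 reads in 4 libraries, 2 of each group.

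The other genes of the X-linked cluster were read from the list of 7 mature miRNAs chosen for it, of which 5 were matched in the table and miR-542-3p and miR-351 were not analysed here. miR-503-5p, a near relative of the family in its seed, had 8 reads in 5 libraries and never more than 3 in one. miR-503-3p and miR-542-5p were at 0 reads in every library. miR-450b and miR-450a, which are not related to the family in sequence, were found in all 20 libraries at 3 to 50 and 1 to 36 reads.

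miR-450b ran from 18.2 through 21.8 to 30.4 normalized counts in HF bulls and from 20.2 through 24.7 to 40.7 in LF bulls. Its means of 23.2 ± 4.92 and 27.2 ± 6.73 gave a log2 fold change of -0.21 (SE 0.19, 95% interval -0.61 to 0.18, limma, adjusted p = 0.96). miR-450a ran from 1.93 through 7.20 to 14.3 in HF and from 2.70 through 9.61 to 15.4 in LF. Its means of 6.55 ± 3.77 and 8.97 ± 4.10 gave -0.43 (SE 0.34, 95% interval -1.13 to 0.28, limma, adjusted p = 0.94). Groups overlapped for both. Of these 2 miRNAs, 0 met the thresholds, against 9 of all 435 miRNAs tested (2.07%).

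**Figure D5:**
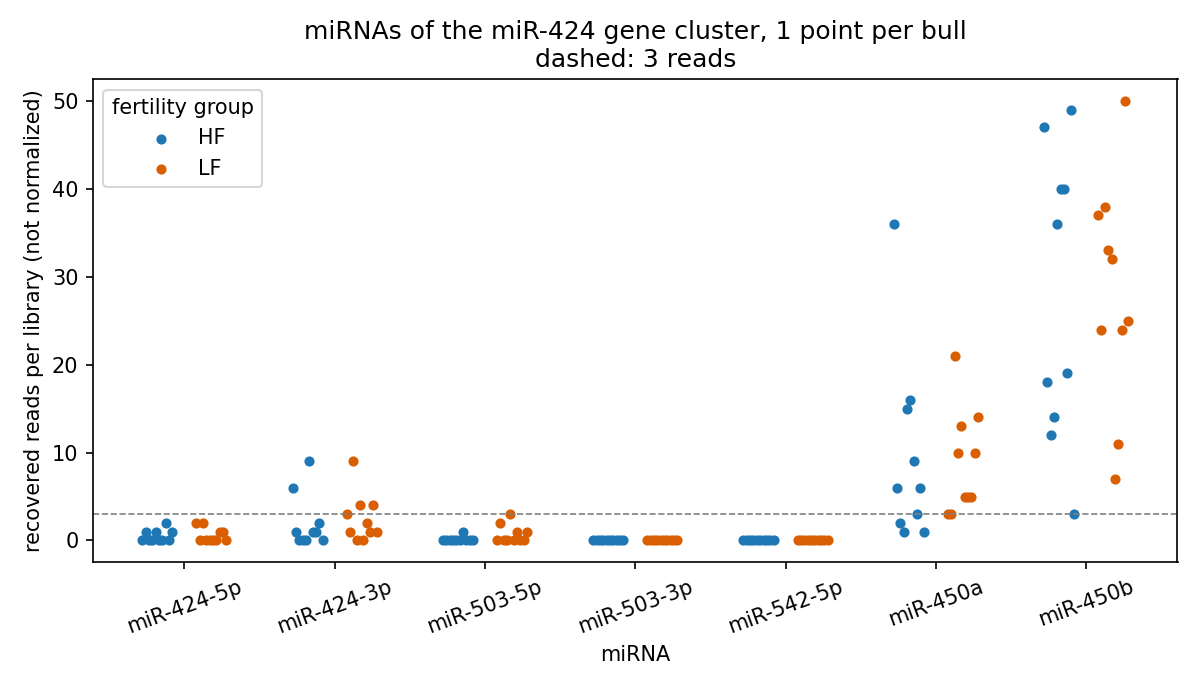
Recovered reads per library, not normalized, of the miRNAs of the X-linked miR-424 gene cluster, with HF in blue and LF in orange and a point for each bull. The dashed line marks 3 reads. miR-424-5p and miR-503-5p do not pass the line, miR-424-3p passes it in 5 libraries and reaches 9 reads, miR-503-3p and miR-542-5p are at 0 in all 20 libraries, and miR-450b reaches 50 reads.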

How the data were processed

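Small RNA libraries of 20 bulls (10 HF, 10 LF, as labelled) were used. The authors clipped adapters, kept reads of 15 to 28 bases, removed other short RNAs, aligned with Bowtie to ARS-UCD1.2 and used miRDeep2 to count reads on the bovine entries of miRBase. The submitters' processing notes name FastQC 0.11.8, cutadapt 2.6, R 3.4 and edgeR 3.5. The table is described as counts, but the values the authors deposited are a normalized signal on the scale of CPM, taken here to include TMM factors. Every value was divided by that of a single read. This was taken as the largest low value of a library of which most of its values were whole multiples (in HF6 the smallest value lay below it). Within 0.01, 95.0% of values above 0 were whole, as were all values of the 8 members. The step was chosen for whole multiples, so this share is not an independent check. Library totals of 103204 to 3097581 reads limit the precision of rare miRNAs.

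miRNAs under 1 in at least 10 of 20 bulls were removed, leaving 435. log2(normalized count + 1) was fitted with limma 3.58.1 with a variance trend (R 4.3.3), with Benjamini-Hochberg adjustment over all 435, and was tested on simulated data. Reads recovered and rounded were tested with edgeR 4.0.16 and DESeq2 1.42.0. Ratios and correlations used two-sided permutation tests (100000 resamples, scipy 1.17.1). Neighbouring genes lie within 10 kb on 1 chromosome.

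Members, lists and tests were chosen with earlier results of these data known. Named are the 8 members, miR-503, the miR-424 gene cluster, marker lists and the 3 miRNAs nearest to each member with at least 10 reads in every library. A fit without the filter and a test of the arm ratio by bull had been planned for miR-424, but neither is given because both arms are under the floor in both groups. Reads of its arms are described instead. Alternatives covered the test, the scaling, the pseudocount, the filter and the bulls included. miRNA sequences were not used here.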

Additional observations from a re-analysis of the deposited data

Results flagged for a closer look

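In 5 of 22 group-wise sets of values a single bull stood apart, in that its gap to the nearest other bull, as a part of the whole range of its group, was above Dixon's critical value for 10 samples. Chance gives about 1 in 20 such sets, or 1.1 of 22, if values are normal and sets independent, which counts near 0 and ratios that share members are not. For miR-15b this was so in both groups, with HF14 at 1367 normalized counts against 564 to 939 in the other HF bulls (gap 0.534 of the range) and LF18 at 1862 against 448 to 884 in the other LF bulls (gap 0.691). They rest on 1798 and 1509 reads, and on the log2 scale the gaps were 0.42 for HF14, below the critical value, and 0.52 for LF18. HF14 and LF18 also held the highest miR-16a of their groups, at 5556 and 6005. The log2 ratio of miR-195 over miR-497 was 7.15 in LF18 against 4.38 to 5.76 in the other LF bulls (gap 0.502), with 2 reads of miR-497 there. For miR-424-5p, HF17 stood apart at 9.19 normalized counts, a single read in the shallowest library (gap 0.782), and for miR-424-3p HF12 did at 4.71, or 9 reads (gap 0.492, or 0.30 on the log2 scale and below the critical value).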

How the results depend on the processing

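No member met both thresholds under any of the 30 alternatives, those that leave out 1 bull each included. The count over all miRNAs was 9, and moved to 4 with a pseudocount of 5, to 15 with no filter and to 0 with at least 10 reads in every bull (5 of 158 with an unadjusted p under 0.05 in limma). It was between 9 and 13 with the other tests, scalings, a pseudocount of 0.5 or libraries of at least 500000 reads, and ran from 7 to 15 as each bull was left out, reaching 15 without HF6 and 14 without LF1, LF11 or LF13. The log2 fold changes of miR-15a, miR-15b and miR-195 kept their direction in all 30, and the differences in the ratios of miR-16a over miR-15a and miR-16b over miR-15b in the 22 run for them (a pseudocount of 0.5 and the choice of bulls). In libraries of at least 500000 reads, miR-15b came to 0.012, miR-195 to -0.023 and the ratio of miR-16b over miR-15b to -0.017. That of miR-16a turned to -0.012 with DESeq2, to -0.035 with library totals and no TMM factor and to -0.0033 in libraries of at least 500000 reads, and ran from -0.079 to 0.085 as each bull was left out. That of miR-497 turned to -0.089 and -0.086 with edgeR's likelihood ratio and quasi-likelihood tests, -0.12 with DESeq2, -0.047 without TMM, -0.0095 with DESeq2 size factors and -0.027 with a pseudocount of 5, and ran from -0.23 to 0.11 as each bull was left out, the lowest without LF18. For miR-16b the range was -0.11 to 0.035. The ratio of miR-195 over miR-497 ran from -0.27 to 0.098 and turned only without LF18. The members' share rose from 1.59% to 2.63% without miR-100 in the total. The cause of these turns was not tested. Depth limits miR-497 and leaves both miR-424 arms under the floor. No paired analysis was possible because no bull number occurs in both groups.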
